A study of Caenorhabditis elegans with 2 samples.

Results

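The regions described here are candidate binding regions of GFP-tagged NHR-232, a nuclear hormone receptor of Caenorhabditis elegans. Their peak summits lie inside noncoding RNA genes that are not tRNA, snoRNA or snRNA genes. Members were taken from the authors' list of candidate regions called on pooled replicates (ce11). The summit had to lie inside a gene annotated as ncRNA, lincRNA, antisense RNA or miRNA, with no tRNA, snoRNA or snRNA gene within 200 bp. Regions in the RNase P, MRP, Y RNA and srpr- genes were left out. The rule gave 789 members of 21075 nuclear candidate regions (3.74%). Of these, 39 were also in the list of regions that passed the authors' irreproducible discovery rate (IDR) procedure, and 750 were not. That procedure weighs the agreement of ranks between replicates, and the 519 regions that passed were those of highest pooled signal. The pooled list is labelled as peaks and background for input to this procedure. A member outside the IDR list is therefore a candidate and may be background.

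The study carried out ChIP-seq with an anti-GFP antibody on whole hermaphrodite embryos of strain OP489 (unc-119(tm4063) III; wgIs489). The strain carries a C-terminal GFP-FLAG fusion of NHR-232. Late embryos were collected 5 hours after synchronisation by egg bleaching, and 2 biological replicates form the only group, so no conditions can be compared. Chromatin of all embryonic cell types was pooled, and the control experiment named in the labels was not analysed here. Signal is the authors' value for each region, in arbitrary units. It is on a higher scale in the pooled list than in the lists of single replicates. Read depth is unknown from the files used.

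The genes concerned are of several kinds. MicroRNAs (miRNAs) are cut from hairpin transcripts and repress messenger RNAs through a seed at bases 2 to 8. Long intergenic and antisense RNAs are transcribed between protein-coding genes or opposite to them. Most genes of the ncRNA biotype in the worm are short, carry only a systematic name and have no known function. Transcription by RNA polymerase III, which makes tRNAs, starts from promoter elements inside the gene called the A box and the B box.

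The sequences that hold the strongest members are shown first. The 7 members of the IDR list with a match to the B box form, called the box here, within 100 bp of the summit are given below over 70 bp on each side of the summit, on the strand of the match. Capitals mark that match and, in T28D6.15, a match to an A box form. The B box form was chosen after the sequences of the strongest members had been seen. It leaves some bases free, so a match is one of letters and no proof of a B box. The windows lie in ce11 (WBcel235) at chrIV:11026138-11026278 (minus strand), chrX:6207790-6207930 (plus), chrIII:11371391-11371531 (minus), chrII:14496957-14497097 (plus), chrX:3348005-3348145 (plus), chrX:3914441-3914581 (minus) and chrX:5818345-5818485 (plus), in the order printed. The last sequence, from F59B10.7, shows GAGAGA in capitals, a repeat whose shares are given below (chrII:10502863-10503003, plus strand).
F36H1.17: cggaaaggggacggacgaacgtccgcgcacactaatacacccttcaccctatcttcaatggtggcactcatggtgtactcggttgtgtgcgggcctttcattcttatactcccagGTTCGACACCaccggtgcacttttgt
C14F11.14: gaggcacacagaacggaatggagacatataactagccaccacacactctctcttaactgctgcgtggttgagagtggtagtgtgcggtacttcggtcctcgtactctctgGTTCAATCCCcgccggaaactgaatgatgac
T28D6.15: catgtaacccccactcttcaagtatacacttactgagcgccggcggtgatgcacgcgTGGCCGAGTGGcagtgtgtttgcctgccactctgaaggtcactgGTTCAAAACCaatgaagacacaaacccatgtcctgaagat
K10H10.14: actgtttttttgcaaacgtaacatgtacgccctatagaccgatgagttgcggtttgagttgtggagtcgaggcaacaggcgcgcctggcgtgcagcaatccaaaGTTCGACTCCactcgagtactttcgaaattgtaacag
ZK816.9: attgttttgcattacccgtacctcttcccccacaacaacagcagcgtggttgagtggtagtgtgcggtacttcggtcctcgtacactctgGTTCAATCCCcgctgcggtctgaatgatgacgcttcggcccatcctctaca
T22B2.12: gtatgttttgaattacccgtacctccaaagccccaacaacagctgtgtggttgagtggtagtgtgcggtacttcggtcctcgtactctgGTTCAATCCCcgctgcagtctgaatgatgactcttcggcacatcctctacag
F13D11.21: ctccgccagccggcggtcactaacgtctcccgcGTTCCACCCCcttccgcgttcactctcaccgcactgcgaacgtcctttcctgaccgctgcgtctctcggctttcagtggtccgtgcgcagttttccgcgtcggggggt
F59B10.7: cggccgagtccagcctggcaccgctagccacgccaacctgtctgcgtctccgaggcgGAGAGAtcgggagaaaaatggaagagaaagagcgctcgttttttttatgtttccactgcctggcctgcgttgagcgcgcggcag

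F36H1.17, a gene of 89 bp on the minus strand of chromosome IV (chrIV:11026131-11026219), held the strongest member. Its pooled signal was 587, rank 10 of all candidate regions, and its signals were 309 in replicate 1 and 278 in replicate 2. The summit lay at base 12 of the gene, and the 3′ end of the gene was 19 bp upstream of the hairpin of mir-51 on the same strand. C14F11.14, a gene of 147 bp (chrX:6207835-6207981), followed with a pooled signal of 415 (rank 21) and with 179 and 237 in replicates 1 and 2. Both regions were therefore among the strongest in each replicate, and F36H1.17 was the higher of the pair in both.

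The region shared by T28D6.13 and T28D6.15, overlapping genes on opposite strands in an intron of the alpha-tubulin gene tba-7, had a pooled signal of 322 (rank 63) and replicate signals of 155 and 165. The region in K10H10.14 (chrII:14496894-14497177), 999 bp upstream of the short-chain dehydrogenase gene dhs-8, had a pooled signal of 292 (rank 75) and replicate signals of 135 and 157. The region shared by ZK816.8 and ZK816.9 had a pooled signal of 219 (rank 127) and replicate signals of 110 and 109. These 3 regions had nearly the same signal in the replicates. The other 2 regions with the box were weaker. That of T22B2.9 and T22B2.12 had a pooled signal of 118 and replicate signals of 71.3 and 48.6, and that of F13D11.21 had 110, with 49.9 and 57.2. The protein-coding 5′ end nearest to the latter was that of hbl-1, the hunchback-like gene of developmental timing.

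The box thus stood at 4 of the 5 members among the 100 strongest candidate regions and at 5 of the 9 members among the 259 strongest regions of the IDR list. Over all 39 IDR members it was within 50 bp of the summit in 6 (15.4%, 95% Wilson interval 7.25 to 29.7), and within 100 bp in 7 (17.9%). Among the other 750 members it was within 50 bp in 7 (0.933%, interval 0.453 to 1.91) and within 100 bp in 13 (1.73%). Within 50 bp the share was 1.70% of all nuclear candidate regions, 1.52% of the 197 IDR regions that were neither members nor at a small RNA gene and 37.6% of the 194 IDR regions at tRNA genes. At snoRNA genes 12 of 54 IDR regions held it within 50 bp (22.2%) and 40.7% within 100 bp, which is above the shares of the IDR members. Since the box was chosen from these regions, the difference is a description. The intervals here and below cover counting error only.

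In 6 of the 7 regions the box lay downstream of the summit, along its own strand, by 24 to 50 bp, and in F13D11.21 it lay 32 bp upstream. At the 153 tRNA regions of the IDR list with the box the median offset was 46 bp downstream (quartiles 16 and 60). At the 13 other members with the box it lay downstream in 8 and upstream in 5, with a median of 15 bp downstream and quartiles of -7 and 56. In F36H1.17, C14F11.14, T28D6.15, K10H10.14 and T22B2.12 the match was inside a gene of the same strand. ZK816.9, a gene of 57 bp, ended within the match, and F13D11.21 is on the opposite strand. The first members outside the IDR list with the box were anr-34 (signal 87.8, rank 533) and mir-4936 (signal 86.3, rank 553). Of the other 11, 4 lay between ranks 1001 and 5000 and 7 beyond rank 10000.

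**Figure D1:**
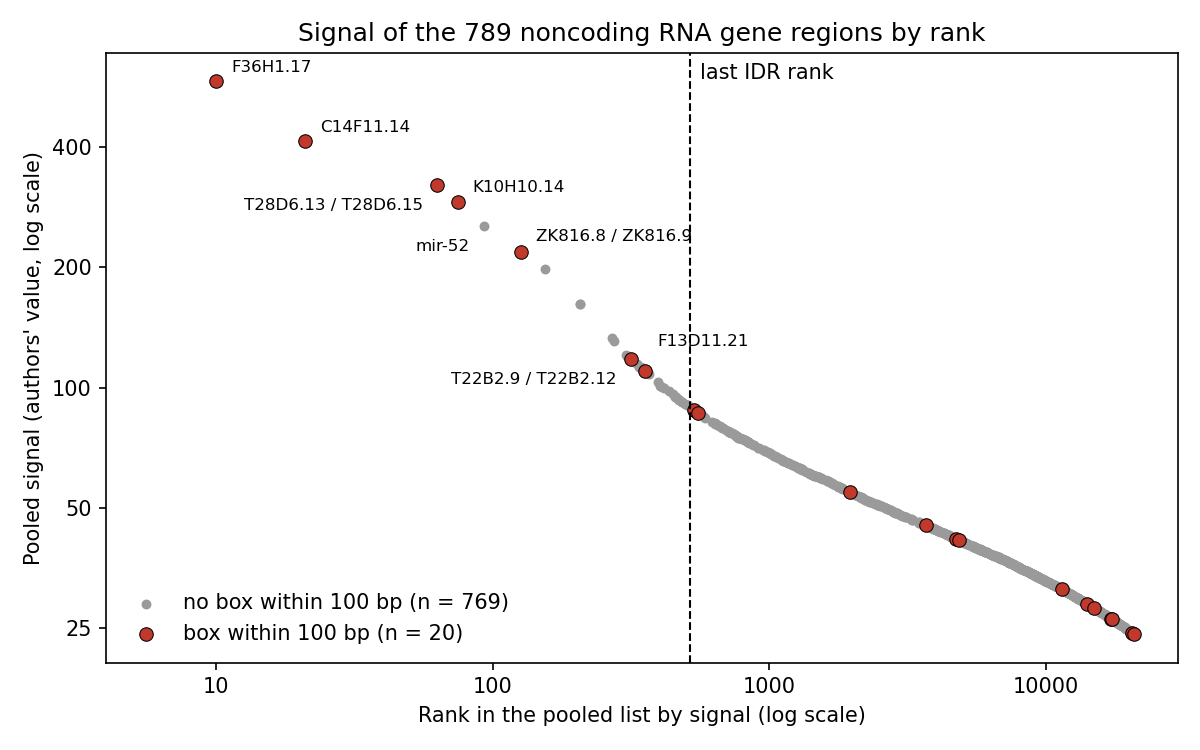
Pooled signal against rank in the pooled list for the 789 members, both axes logarithmic, 1 point per region. Red points are the 20 members with the box within 100 bp of the summit, and the dashed line marks the last rank of the IDR list. Of the 5 members among the first 100 ranks, 4 are red. The box was chosen after the strongest of these regions had been seen.

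The 3 regions on the X chromosome with the letters GTTCAATCCC share more than the box. Aligned with blastn, the windows within 100 bp of the summits of C14F11.14 and ZK816.9 were 90.8% identical over 109 bp. Those of C14F11.14 and T22B2.12 were 89.0% identical over 109 bp, and those of ZK816.9 and T22B2.12 were 89.0% identical over 191 bp. They are copies of 1 sequence and not independent members. With the copies counted once, 5 of 37 IDR members held the box. No other pair among the 39 windows matched, and 0 of the 39 matched an annotated tRNA, snoRNA or snRNA gene at an expected value of 1e-03. A search of the genome with C14F11.14 found 1 further long copy, in K02D3.4 and K02D3.5 (chrX:13697688-13697809, 84.2% identity over 133 bp). That copy also held the box, but no candidate summit lay within 150 bp of it. Of its 50-base words, 79.5% occurred once in the genome, against 80.3% for the copy in ZK816.8 and ZK816.9 and 100% for the other 2.

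Of the 789 members, 4.94% were in the IDR list (interval 3.64 to 6.69), against 2.38% of all nuclear candidate regions. Of the 19628 nuclear regions outside every class of noncoding RNA gene considered, 1.00% were in it (interval 0.873 to 1.15). At tRNA genes the share was 43.6%, at snoRNA genes 35.1% and at snRNA genes 23.1%, each with an interval above that of the members. Members made up 7.77% of the nuclear IDR regions. Genes of the 4 biotypes cover 1.44% of the nuclear genome. By rank, members were 5% of the first 100 regions, 2% and 4% of the next blocks of 100, 13% of ranks 301 to 400, 12.6% of ranks 401 to 519 and 12.3% of ranks 520 to 1000. Below rank 10000 they were 2.51%. Their share was thus highest around the IDR limit and not at the top of the list.

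**Figure D2:**
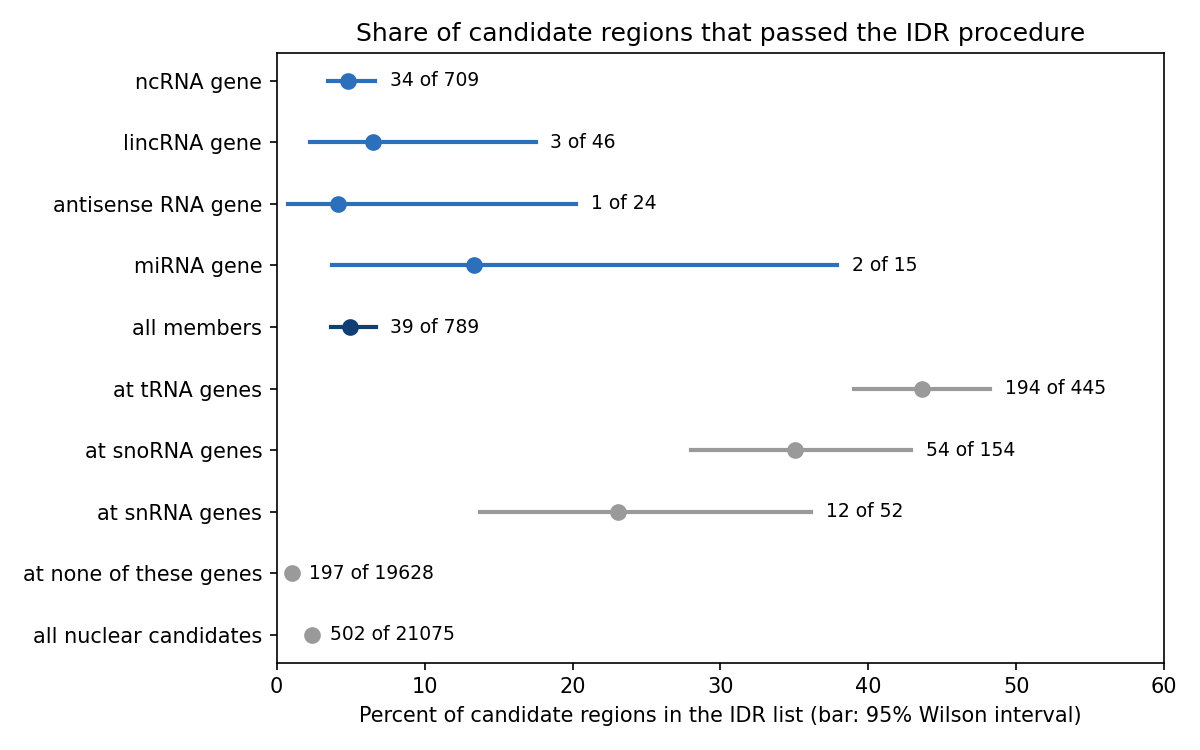
Percent of candidate regions in the IDR list, as points with 95% Wilson intervals, for members by biotype (blue), all members (dark blue) and other regions (grey). The 39 of 789 members lie above regions outside these genes and below regions at tRNA, snoRNA and snRNA genes.

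The limit itself fell within a narrow range of signal. The weakest IDR member, in F59F5.9, had a pooled signal of 90.4. The 5 members just outside were those in F53B3.12, upstream of the planar polarity gene vang-1 (89.1, rank 523), F38E9.8, upstream of twf-2 (89.0), C16C2.9 (88.7), anr-34 (87.8) and F47B10.12 (87.6). The IDR regions are those of highest pooled signal, so the difference in signal is what divided the members and is given as a description. The median signal was 110 for the 39 IDR members (quartiles 95.7 and 132) and 36.1 for the others (quartiles 29.5 and 46.8). It was 112 for IDR regions outside noncoding RNA genes. For the distance rule, the member nearest to a small RNA gene was that in C01B10.45, at 223 bp (signal 94.8). The farthest region left out by it was that in mir-1829.3, at 182 bp (signal 45.3).

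The replicates gave most IDR members as strong regions in one or both. Of the 39, 18 had a summit within 100 bp among the strongest 519 regions of both replicates (46.2%, interval 31.6 to 61.4), against 1.64% of all nuclear candidates. A further 12 were found so in replicate 1 alone, 8 in replicate 2 alone and 1, in F56F3.10 and F56F3.11, in neither. At tRNA genes the count was 159 of 194. The authors' procedure selects for this property, so it is no independent check. None of the 750 other members was among the strongest of both, 10 were in replicate 1 and 12 in replicate 2, and 36.8% had any match in both full lists.

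Several single members differed between the replicates. The region of T28B11.14 and T28B11.22 (pooled signal 113) had a replicate 2 signal of 70.8 and, within 100 bp, a replicate 1 signal of 20.5. A stronger replicate 1 region of 51.1 overlapped it with its summit 157 bp away. F52D10.7, upstream of the 14-3-3 gene ftt-2, had a pooled signal of 121 and a replicate 1 signal of 70.1, and its nearest overlapping replicate 2 region, of 57.5, had its summit 183 bp away. That region also overlaps the IDR member in the neighbouring gene F52D10.9 (91.3), whose summit is 204 bp away. In F59F5.9 the signals were 53.2 and 34.0. Among members outside the IDR list, mir-4936 had 23.2 in replicate 1 and 63.1 in replicate 2.

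**Figure D3:**
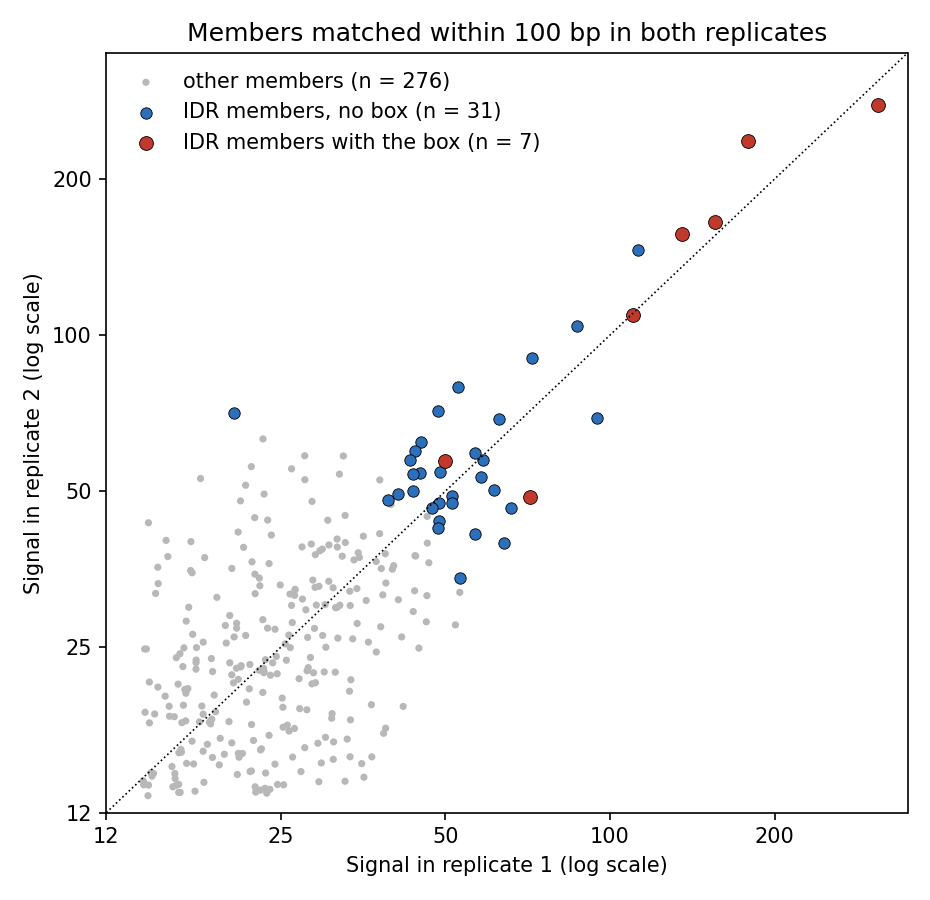
Signal in replicate 1 against replicate 2 (both axes logarithmic) for the members with a summit within 100 bp in both lists, 1 point per region, with the line of equal signal dotted. The 38 matched IDR members lie mostly above the others, and F36H1.17, at 309 and 278, is at the top right.

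The miRNA genes among the members belong in part to families that act in the embryo. The mir-51 family is expressed throughout embryogenesis and is required for it. Its mature miRNAs are shown because candidate regions lay near all 6 genes. The sequences are read from RefSeq's annotation of WBcel235, with capitals marking the seed, bases 2 to 8, which is the same in all 6.
mir-51: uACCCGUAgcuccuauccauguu
mir-52: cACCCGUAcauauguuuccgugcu
mir-53: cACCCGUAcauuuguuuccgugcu
mir-54: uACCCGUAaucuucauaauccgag
mir-55: uACCCGUAuaaguuucugcugag
mir-56: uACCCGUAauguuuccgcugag

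The region in mir-52 (chrIV:14034008-14034107) was the strongest miRNA member and passed the IDR procedure. Its pooled signal was 254 (rank 93), with 113 in replicate 1 and 146 in replicate 2. The summit was at base 63 of the hairpin gene, and at base 21 of the antisense gene Y37A1B.335. The other 5 genes of the family held no summit inside. The region of F36H1.17 lay 96 bp upstream of mir-51, and a region of signal 40.0 lay 477 bp upstream of mir-53. The mir-54, mir-55 and mir-56 genes are clustered on X. A region of signal 84.6 was 100 bp upstream of mir-54, and an IDR region of signal 113 was 303 bp downstream of the 5′ end of mir-56, beyond its 3′ end.

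The mir-35 family, which is needed for embryonic viability, had 1 member, in mir-37. It had a pooled signal of 78.1 (rank 707), 46.3 in replicate 1 and 31.4 in replicate 2. The mir-35 to mir-41 genes are clustered, so this summit lay within 500 bp of all 7. Another region, of signal 76.8, lay 373 bp upstream of mir-35. In the bantam-related mir-58 family, mir-58.1 held a member of signal 77.6 (44.1 and 37.5 in the replicates). An IDR region of signal 111 lay 164 bp upstream of mir-58.1 and was no member, since it was outside the gene. The summits of this region and of the member, 60 bp past the 5′ end, were closer together than the 470 bp width of a region. For mir-80 and mir-81 the nearest regions were outside the gene, with signals of at most 59.2, and mir-82 had none within 500 bp.

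The let-7 gene, which controls late larval timing and is annotated over 1732 bp, held 2 members. The first had a pooled signal of 73.1, with a replicate 2 signal of 47.2 and no replicate 1 region within 100 bp. The second had 53.3 (26.6 and 32.3). Their summits, at 800 and 601 bp from the 5′ end, were closer together than the 470 bp width of a region. In lin-4, the other founding heterochronic miRNA, regions lay 86 bp and 381 bp upstream and none inside, and mir-48, mir-84, mir-241 and mir-237 had none within 500 bp. The muscle miRNA mir-1 and the neuronal mir-124 had regions upstream only, of signal 80.1 and 27.5, as did mir-71 (52.9). No region lay within 500 bp of lsy-6, mir-228, mir-240 or mir-786. The strongest member after mir-52 was mir-8192, in an intron of the folliculin gene flcn-1 (99.8, with 56.7 and 41.4), and it was in the IDR list. In all, 14 of 261 miRNA genes held a member (5.36%) and 2 of 15 miRNA members were in the IDR list (13.3%, interval 3.74 to 37.9).

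Long intergenic RNA genes held 46 members in 37 of 194 genes (19.1%), of which 3 were in the IDR list (6.52%, interval 2.24 to 17.5). The median gene length was 761 bp for these, 689 bp for antisense RNA, 140 bp for ncRNA and 95 bp for miRNA genes. The part of length in the share of genes that held a member was not tested. A region is counted under each biotype that holds its summit. The strongest was in linc-91 (chrI:4699610-4702866), nearest to the chromatin remodeller gene chd-7. It had a pooled signal of 114 and replicate signals of 58.6 and 57.4. This gene held 5 members, more than any other gene, and the other 4 had pooled signals of 31.1 to 72.6. The summits of the regions of 114 and 72.6, at 1803 and 2007 bp from the 5′ end, were closer together than the 470 bp width of a region. The others in the IDR list were linc-128, near the calmodulin gene cmd-1 (101, with 51.5 and 49.0), and linc-129, near the calcium pump gene sca-1 (93.3, with 48.8 and 43.8). Their replicate signals all lay between 43.8 and 58.6. When the strongest regions of replicate 2 alone stood in for the IDR list (replicate 1 left out), 2.17% of lincRNA members were called, against 6.52% with replicate 1 alone.

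Of the 169 genes named linc-, 34 held 44 members, with signals from 24.2 to 114 and a median of 32.3, which is near the median of 32.2 over all nuclear candidates. Antisense RNA genes held 24 members in 19 of 100 genes. The strongest, in F48C1.15 opposite an intron of let-526, a subunit gene of the SWI/SNF complex, was the only one in the IDR list (signal 103, with 65.9 and 46.5). Without replicate 1 no antisense RNA member was called, and without replicate 2 the share was 8.33%. The 57 anr- genes held 16 members in 12 genes, with a median of 32.2 and none in the IDR list. Opposite the nuclear hormone receptor gene nhr-66, anr-44 held 4 members, the strongest of signal 66.3, with none within 100 bp in both replicates. The genes linc-90, linc-129 and C30E1.9 held 3 each. Of the 918 genes that held a member summit, 890 held 1. The regions of 74 members overlapped the region of another member, so the members of a gene are not always separate sites. The long noncoding RNA rncs-1, which inhibits Dicer, held a weak member (30.4), and tts-1 and lep-5 had no region within 500 bp. The smy- genes outside the snRNA biotype are snoRNA genes and held no member.

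Most members, 709, were in genes of the ncRNA biotype, and 34 of these were in the IDR list (4.80%, interval 3.45 to 6.63). The intervals of the 4 biotypes overlapped. Of 7756 such genes, 848 held a member (10.93%) and 47 an IDR member (0.606%). After the regions with the box and mir-52, the strongest was in F57B10.17, in the promoters of both dad-1 and the trehalase gene tre-1. Its pooled signal was 198, with 87.2 and 104 in the replicates. F31F7.6 and F31F7.8, upstream of the kinase gene mrck-1, shared a region of 162 (72.2 and 90.2). C17G1.9, opposite an intron of the tetraspanin gene tsp-21, had 162 (94.7 and 69.1). The last was higher in replicate 1 and the others in replicate 2.

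The next members in the IDR list had pooled signals from 95.01 to 133. W02F12.11, upstream of the gene dlst-1 for a subunit of a mitochondrial dehydrogenase complex, had 133 (62.8 and 68.8 in the replicates). F13D11.7 had 131 (52.7 and 79.4), and lies on X like F13D11.21. F59B10.7, upstream of the transcription factor gene myrf-1, had 120 (48.5 and 71.5). Genes on both strands shared the regions of F40F9.14 and F40F9.15 in drap-1 (113), C10G11.12 and C10G11.17 (112), F56F3.10 and F56F3.11 upstream of rps-3A and ifet-1 (109), F31E8.7 and F31E8.18 (108), W06B11.7 and W06B11.9 upstream of puf-9 (101), and W10C8.8 and W10C8.12 (97.9). Single genes held those of T28F4.7 (111), C24G6.10 in the promoters of dnj-19 and of the nuclear receptor gene nhr-47 (109), R13H4.11 upstream of the alpha-catenin gene hmp-1 (96.4) and F10G8.12 opposite an intron of ercc-1 (95.01).

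The surroundings of the IDR members were compared with those of the others. Promoters of protein-coding genes (1000 bp before the 5′ end and 200 bp after it) held 18 of 39 IDR summits (46.2%, interval 31.6 to 61.4) and 210 of 750 others (28.0%, interval 24.9 to 31.3). For regions outside noncoding RNA genes the shares were 67.5% in the IDR list (interval 60.7 to 73.7) and 25.4% in the rest. The intervals of the IDR members and the other IDR regions overlapped by a small margin. Those of the IDR members and the other members were barely apart. With promoters of 500 bp before and 100 bp after the 5′ end, the members' shares were 28.2% and 17.6%. No intervals stand beside these shares, nor a share for regions outside noncoding RNA genes. Protein-coding genes held 10 IDR summits (25.6%), all in introns, and 289 others (38.5%), of which 48 were in exons. With 0 of 39 in exons, a share of up to 8.97% is within the interval.

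Genes on both strands held 14 IDR summits (35.9%, interval 22.7 to 51.6) and 148 others (19.7%, interval 17.0 to 22.7). The strand of ChIP-seq reads does not tell which gene of such a pair a region belongs to, and 2 names are given for them here. In the 25 IDR members and 600 others held by 1 gene, the position along the gene was compared. The median summit lay at 30.7% of the length from the 5′ end for IDR members (95% interval from order statistics 16.7 to 54.6) and at 46.2% for the others (41.7 to 51.0), so that the intervals overlapped. The first 20% of the gene held 10 of 25 (40%) and 139 of 600 (23.2%). Over the 5 such members among the 259 strongest IDR regions the median was 13.5%, and with every gene that holds a summit counted the medians were 41.2% and 47.4%. The genes had a median length of 198 bp against 182 bp, and an upper quartile of 499 bp against 293 bp. Many summits therefore lie near both ends of the gene within the 470 bp width of a region.

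**Figure D4:**
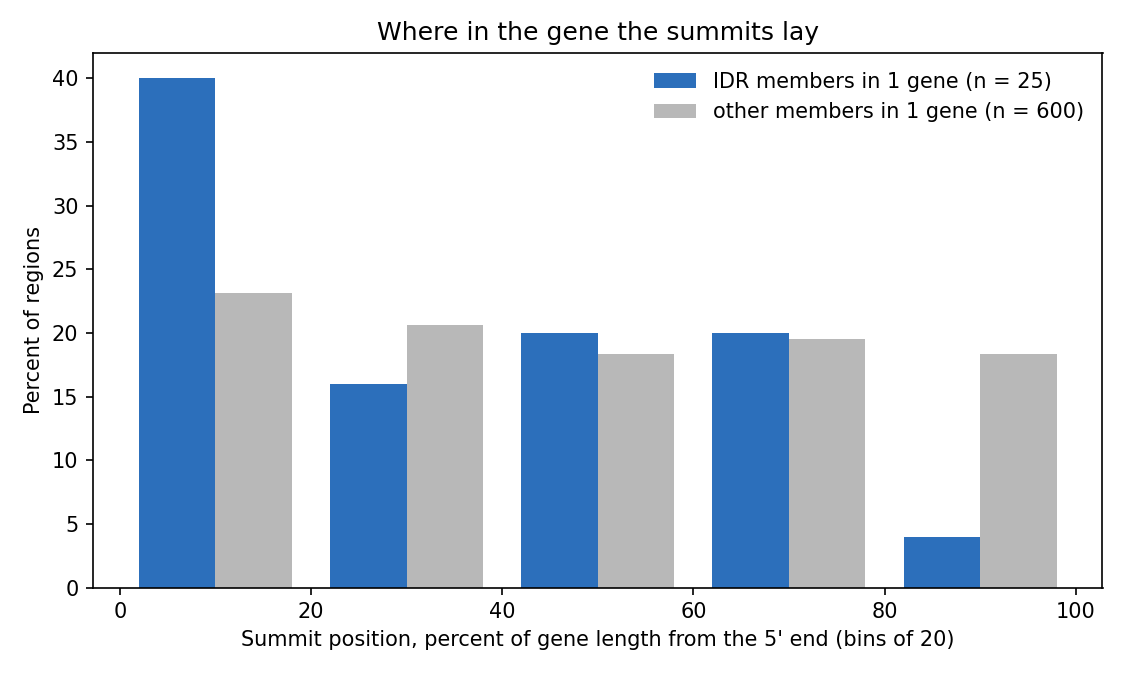
Percent of regions by summit position along the gene, in bins of 20% of its length from the 5′ end, for the 25 IDR members (blue) and 600 other members (grey) held by 1 gene. The first bin holds 40% of the IDR members and 23.2% of the others, whose remaining bins hold 18.3% to 20.7%.

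Chromosome X held 278 members (35.2%), compared with 16.8% of all nuclear candidates and 31.7% of the annotated genes of these biotypes. It held 12 of the 39 IDR members. Chromosomes I and V held 8 each, II and III 4 each and IV 3.

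Other motifs were searched within 50 bp of the summits on both strands. GAGAGA was found in 11 of 39 IDR members (28.2%, interval 16.5 to 43.8) and in 149 of the other 750 (19.9%, interval 17.2 to 22.9). Over all 789 members the share was 20.3% (interval 17.6 to 23.2), against 9.63% of candidate regions outside the IDR list and outside noncoding RNA genes (interval 9.22 to 10.05). Other IDR regions had 18.8%. Within 100 bp the shares were 51.3% of IDR members, 33.3% of other members and 18.5% of all nuclear candidates. At this width other IDR regions had 31.5%, and IDR regions at tRNA and snoRNA genes had 35.6% and 25.9%. The share of the other members was thus near that of IDR regions elsewhere. The intervals of IDR members and other members overlapped at both widths.

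GC content moved in the same direction. Within 50 bp of the summit, its median was 53.5% in IDR members, 47.5% in other members, 51.5% in other IDR regions and 42.6% in all nuclear candidates. Its part in the motif shares was not tested. The A box form was found in 1 of 39 IDR members, T28D6.15 (2.56%, interval 0.454 to 13.2), in 1 other member (0.133%) and in 0.413% of all nuclear candidates. Among IDR regions it was in 7.73% at tRNA genes and 24.1% at snoRNA genes. Only this form of the A box was searched, so A boxes with other letters were not counted. A share that rests on 1 region is a description.

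The hexamers AGGTCA and AGTGCA, bound by nuclear receptors, were found in 1 and 3 of 39 IDR members (2.56% and 7.69%), against 2.96% and 3.49% of all nuclear candidates. The B box core GTTCGA was in 3 IDR members (7.69%, against 4.15% of candidates). CACGTG and the control TCCGAT were in 1 each, against 2.36% and 4.38%. For the 39 IDR members, all of these intervals included the share of all nuclear candidates. Over all 789 members, AGGTCA was in 4.18% (interval 2.99 to 5.82), above its share of all nuclear candidates. CACGTG was in 1.14% of them (interval 0.601 to 2.15), below its share of all nuclear candidates. For AGTGCA (3.30%), GTTCGA (3.55%) and TCCGAT (4.31%) the intervals over all members included that share. A run TTTTT within 30 bp after the 3′ end was found at 6 of 47 ncRNA genes with an IDR member (12.8%), 12.2% of ncRNA genes with another member and 15.2% of all 7756 ncRNA genes. All 39 IDR members and 98.1% of the others had only unique 50-base words around the summit.

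**Figure D5:**
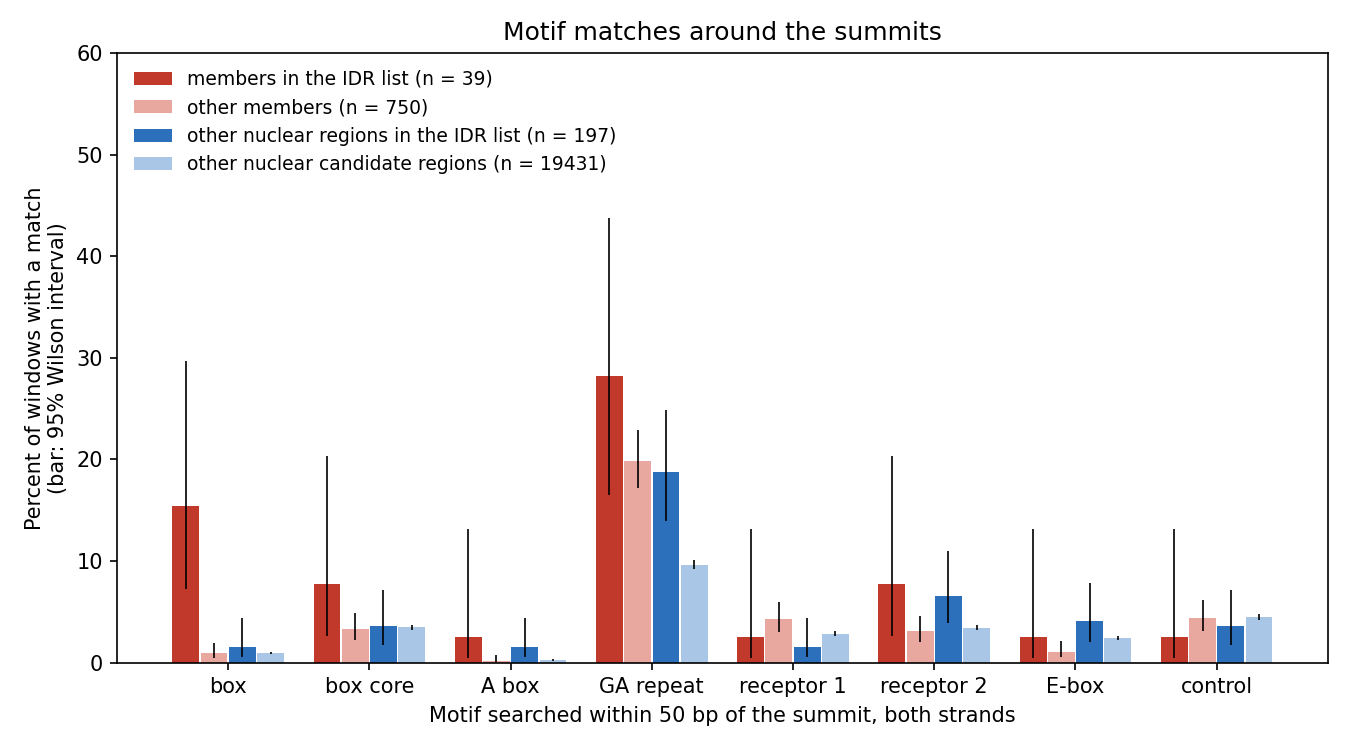
Percent of windows of 50 bp each side of the summit with a match to each motif, as bars with lines for 95% Wilson intervals, for IDR and other members (red shades) and for regions outside noncoding RNA genes (blue shades). GA repeat is GAGAGA, receptor 1 and 2 are AGGTCA and AGTGCA, E-box is CACGTG and control is TCCGAT. The box is in 15.4% of IDR members and at most 1.52% of the other 3 groups, and GAGAGA in 28.2%. The box was chosen after these regions had been seen, and 3 of its matches in IDR members are copies of 1 sequence. IDR regions at tRNA and snoRNA genes, which are not drawn, held the box in 37.6% and 22.2%.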

How the data were processed

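The regions were those of the authors' ce11 lists. Per the file headers and labels, the authors deposited a signal value, a −log10 q value and a summit offset in bp per region, for 1 pooled list, 1 IDR list and 1 list per replicate. Aligner and peak caller were not given in the sources used here. The depth is unknown, so signals were ranked within a list. The −log10 q values were read but support no result. The ce10 lists were not used.

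Summits were placed on WBcel235 with the Ensembl release 115 annotation, and names and miRNA coordinates came from RefSeq. Of 918 member genes, 917 had a RefSeq name. Coordinates are 1-based. Membership in the IDR list meant the same region. This replaced an overlap of at least 1 bp, listed first, under which 48 members would count. Regions were matched to replicates by summits within 100 bp. Motifs were counted on both strands within 50 bp, or 100 bp as the alternative; the box was added after seeing the data. Intervals are 95% Wilson intervals for shares and order-statistic intervals for median positions, without a test. Regions are not replicates.

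Genes named were the 30 strongest IDR members, the 5 members next below, genes with 3 or more members, the strongest member of each biotype and listed miRNA and long noncoding RNA genes. F59F5.9, F52D10.9, C01B10.45, mir-1829.3 and the K02D3 copy were named after their values were seen. The members and lists were chosen with earlier results of these data known. Membership, positions, summit matching, motif search and promoter windows were tested on simulated data, and the other steps were not. Python 3.11.15, numpy 2.4.6, pandas 2.3.3, scipy 1.17.1, matplotlib 3.10.9 and BLAST 2.17.0 were used.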

Additional observations from a re-analysis of the deposited data

How the results depend on the processing

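The number of members was 782 to 1107 under the other distance and gene-edge rules. With the 259 strongest regions of the IDR list, the share of members was 1.14%, that of ncRNA genes 1.27%, and those of lincRNA and antisense RNA genes 0%. The median position then was 13.5% and the promoter share 66.7%, over 5 and 9 regions. A shorter list by construction lowers each share of members that are in it, but not the promoter share. At most 259 of the 21075 nuclear candidates can be among these regions. Their exact share was not computed, so the values show no excess of members. Of ranks 1 to 100, 101 to 200 and 201 to 300, members were 5%, 2% and 4%, against 3.74% of nuclear candidates. Leaving out each replicate in turn gave shares of 4.82% to 5.07% for all members, 4.65% to 5.08% for ncRNA, 2.17% to 6.52% for lincRNA, 0% to 8.33% for antisense RNA and 13.3% to 20% for miRNA genes. The lincRNA share was lowest and the antisense share 0% without replicate 1. No share of all nuclear candidates called in this way stands beside these values, so they show no excess. With promoters of 500 bp, 28.2% of IDR members and 17.6% of the others were inside. Wider motif windows by construction hold more matches. From 50 to 100 bp, GAGAGA rose to 51.3% in IDR members and 33.3% in the others. In the other members GTTCGA was 6.27%, AGGTCA 8.40%, AGTGCA 8.13%, CACGTG 3.47% and TCCGAT 7.73%. Over all nuclear candidates the shares within 100 bp were 18.5% for GAGAGA, 8.21% for GTTCGA and 6.04% for AGGTCA. They were 7.37% for AGTGCA, 4.66% for CACGTG and 8.74% for TCCGAT. Of the alternatives, 54 stayed within the interval or 1.5 times the main count and 17 did not.

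No paired analysis was possible because there is 1 group. The smallest IDR groups, with 1 to 3 regions per biotype, give wide intervals. Read counts and the control experiment were not analysed here, so no depth or background stands beside the signal of a region.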
